A study of Homo sapiens with 20 samples.

Results

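The RAS-RAF-MEK-ERK cascade, also called the MAPK pathway, carries signals from growth factor receptors to the nucleus, and it induces both its output genes and its own brakes. Active ERK switches on phosphatases that remove the phosphates from ERK (DUSP genes), inhibitors that act between the receptor and RAF (Sprouty and Spred genes), and transcription factors of the ETS and AP-1 families. The transcripts of such genes are widely used as a read-out of pathway activity, and the cascade is often active in colorectal cancer. HT29 and SW480 are both human colorectal adenocarcinoma cell lines.

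The genes described here are 10 MAPK output and feedback genes of 36346 gene names in the deposited data, taken by name in all 20 libraries. They are the phosphatases DUSP4, DUSP5 and DUSP6, the inhibitors SPRY2, SPRY4 and SPRED1, the transcription factors ETV4, ETV5 and FOSL1, and PHLDA1. Each had a single row in every file, and all 10 passed the filter on low values in both cell lines. RNA was sequenced 72 h after both lines were transfected by lipofection with a non-targeting siRNA (SCR) or with one of 2 siRNAs, siPOLR1D2 and siPOLR1D3, against POLR1D, which encodes a subunit shared by RNA polymerases I and III. These are bulk libraries, in which a lower level per cell and fewer cells of a kind cannot be told apart. HT29 had 4 SCR, 2 siPOLR1D2 and 2 siPOLR1D3 libraries, and SW480 had 6 SCR, 3 siPOLR1D2 and 3 siPOLR1D3 libraries. The labels number the replicates but do not say whether they came from separate cultures, so p values measure the spread between these libraries. Values are normalised read counts, scaled separately in each line, and fold changes are on the log2(value + 1) scale.

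The number of reads per library, estimated from the most frequent low value, was between 13500000 and 27600000. POLR1D itself fell by 1.04 on the log2 scale in SW480 (adjusted p = 0.000991, limma), where its values in the silenced cells lay below the whole SCR range. In HT29 the groups did not overlap either, with a log2 fold change of -0.72 that did not pass the threshold over all genes (adjusted p = 0.355, limma). The epithelial genes KRT8, KRT18 and EPCAM were at or above 17160 in every library of both lines. CDX2, a regulator of intestinal identity, was at or below 7.91 in HT29, and KRT20 was at or below 11.2 in the SW480 SCR libraries. CDH1, also an epithelial gene, was between 14560 and 30140 in HT29 and between 648.2 and 2120 in SW480. Among markers of other cell types, the immune gene CD3E was at or below 4.68 in every library, and VIM, a mesenchymal intermediate filament gene, reached 52770 in SW480. In SW480 the mesenchymal gene COL1A1 was between 75.5 and 699.9, and the endothelial gene VWF reached 130.1.

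Some libraries stood apart from the rest of their group across all genes. In HT29, the first principal component (43.3% of the variance) set SCR replicate 1 apart, with SCR replicate 2 next to it. In SW480 the first component (42.0%) placed SCR replicates 1 to 3 and siPOLR1D2 replicates 1 and 2 on one side, called the first side here. The second side held the other 3 SCR libraries (replicates 4 to 6), replicate 3 of siPOLR1D2 and the whole siPOLR1D3 group. The side was set by the sign of the component alone, and SCR replicate 1 lay between the clusters. It was at -14.1, with SCR replicates 2 and 3 at -71.5 and -71.4 and the nearest second-side library, SCR replicate 6, at 21.8. The labels do not name this split. The component was computed from the values of all tested genes, with the members and the silenced libraries among them. Calls within a side, or with the side as a covariate, are thus not independent of the values that set the side. No siPOLR1D3 library lies on the first side. Values within the second side, or without HT29 SCR replicate 1, are therefore given beside those from all libraries.

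In control cells, most members were higher in SW480 than in HT29. On a per-million scale, with each value divided by the listed total of its library, 9 of 10 members had a higher mean in SW480 SCR cells, and SPRED1 was higher in HT29. As the lines were normalised separately, these levels are a description and were not tested. The paper grew the lines in different media, so line and medium cannot be told apart here. The ranges of the SCR libraries did not overlap for 6 of the 10 genes, which were DUSP6, SPRY4, ETV4, ETV5 and FOSL1 with higher values in SW480, and SPRED1 with higher values in HT29. DUSP6, which encodes a cytoplasmic phosphatase that acts on ERK, was at 18.5 ± 3.20 (SD, n = 4) on this scale in HT29 and at 74.8 ± 22.2 (SD, n = 6) in SW480, a ratio of 4.03. SPRY4, which encodes a Sprouty inhibitor of the receptor-to-RAF step, had a ratio of 4.65, and FOSL1, which encodes the AP-1 protein FRA-1, had one of 4.28. ETV5 and ETV4 encode ETS factors of the PEA3 group, and they were 3.53 and 1.65 times as high in SW480. SPRED1, which brings the RAS inactivator neurofibromin to the membrane, was at 261 ± 53.6 (SD, n = 4) in HT29 and at 92.4 ± 19.2 (SD, n = 6) in SW480, so that it was 2.82 times as high in HT29.

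**Figure D1:**
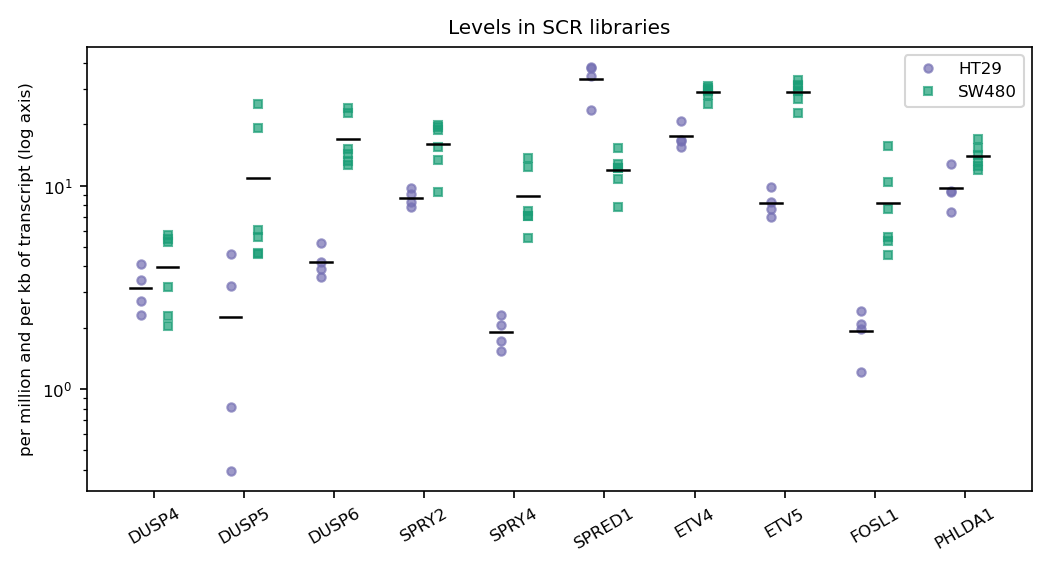
Levels of the 10 genes in SCR libraries, on the per-million scale and per kb of transcript, on a log axis. Each circle is an HT29 library and each square an SW480 library, and black bars are means. SPRED1 is highest in HT29, with a mean of 33.5, and the DUSP5 libraries of both lines spread more widely than those of the other genes.

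Between genes, levels were compared as the per-million level per kb of transcript. In HT29 SCR cells the order began with SPRED1 (33.5) and ETV4 (17.5), whose library ranges did not overlap with each other or with the next gene. PHLDA1, SPRY2 and ETV5 followed at 9.71, 8.73 and 8.22, with neighbours whose ranges overlapped, and then DUSP6 (4.21) and DUSP4 (3.13). DUSP5, FOSL1 and SPRY4 were lowest at 2.26, 1.92 and 1.91 and could not be ranked within their spread. In SW480 SCR cells ETV5 (29.01) and ETV4 (28.8) led and overlapped. ETV4 was apart from DUSP6 (17.0), the third, while the range of ETV5 overlapped with that of DUSP6. From DUSP6 to DUSP4, the lowest at 3.99, each gene overlapped with its neighbour in the order. With coding length in place of transcript length, SPRED1 stayed first in HT29, where PHLDA1 moved from rank 3 to 2 and ETV4 from 2 to 3. In SW480 PHLDA1, a gene with a long untranslated part, moved from rank 5 to rank 1 and SPRED1 from 6 to 3. ETV5 moved to rank 2 and ETV4 to rank 5 there, so their lead depends on the length used.

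SPRY4 and SPRY2 encode close relatives, and the sequences just upstream of the 2 genes are shown side by side. Neither passed the test in silenced HT29 cells (adjusted p = 0.431 for SPRY4 and 0.867 for SPRY2, limma). In silenced SW480 cells SPRY4 had a value of -0.435 on the log2 scale (adjusted p = 0.379, limma). The 2 genes were not tested against each other. RefSeq (GRCh38.p14) gave promoter windows for 5 of the 10 genes, and those of DUSP6, PHLDA1 and SPRED1 overlap untranslated exons of GENCODE 29 and are not printed. The lines below give the 250 bases before the start of SPRY4 (chr5:142324248-142324497, minus strand) and before one of the 3 starts of SPRY2 (chr13:80341127-80341376, minus strand), 5′ to 3′. By GENCODE 29 the SPRY4 window lies within the span of the gene (142310427 to 142326455) and the SPRY2 window upstream of its gene. Capitals mark the ETS core motif GGAAG on either strand.
SPRY4: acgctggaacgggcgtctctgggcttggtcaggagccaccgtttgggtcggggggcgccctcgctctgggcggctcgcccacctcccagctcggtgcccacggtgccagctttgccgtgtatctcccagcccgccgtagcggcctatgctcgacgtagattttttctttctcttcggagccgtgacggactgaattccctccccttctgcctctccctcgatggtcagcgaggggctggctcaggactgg
SPRY2: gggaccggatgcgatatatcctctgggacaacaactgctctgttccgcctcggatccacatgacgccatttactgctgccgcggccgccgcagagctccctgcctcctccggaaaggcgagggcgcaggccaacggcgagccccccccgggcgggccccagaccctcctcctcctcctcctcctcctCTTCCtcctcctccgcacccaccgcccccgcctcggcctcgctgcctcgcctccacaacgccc
The SPRY4 window held 0 matches to GGAAG and the SPRY2 window shown held 1, written CTTCC on the strand printed. The windows at the other 2 starts of SPRY2 held 3 and 1. For comparison, 65.1% of 35116 RefSeq windows of the same length held at least 1 match. The AP-1 motif TGANTCA was found in 6.57% of all windows and in neither of these. A match in such a window is a description of its letters and not a binding site. A link between these letters and the values of the 2 genes was not tested.

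In HT29, the 3 phosphatase genes and ETV5 had lower mean values in silenced than in SCR cells and SPRY4 a higher one, but no member passed the test over all genes. The adjusted p was between 0.355 and 0.867 (limma) over the 10 members. limma called 0 of 13274 genes in this comparison (0.0% called), and the unadjusted p was under 0.05 for 1422 of them. The median log2 fold change was -0.19 over the 10 members and 0.00 over all genes tested. Of the members 7 of 10 values were below 0, and of all genes 6635 of 13274. With siPOLR1D2 alone, 2 members lay below and 1 above every SCR library (7.42% and 5.91% of all genes tested), and with siPOLR1D3 alone 4 lay below and 1 above (11.5% and 10.6%). The smallest p that an exact permutation test of 4 libraries against 4 can give is 0.0286.

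DUSP6 was at 485, 346, 286 and 314 in the 4 HT29 SCR libraries. It was at 245 and 194 with siPOLR1D2 and at 183 and 181 with siPOLR1D3. The silenced cells thus lay below the whole SCR range, as they did for 4.17% of all genes tested. The log2 fold change of DUSP6 was -0.81 (SE 0.19, adjusted p = 0.355, limma; exact permutation test, 2-sided, p = 0.0286). Each siRNA gave a value of the same sign, -0.68 (SE 0.24) for siPOLR1D2 and -0.94 (SE 0.24) for siPOLR1D3, against the same SCR libraries. Without SCR replicate 1 it was -0.66 (adjusted p = 0.314, limma).

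DUSP5, which encodes a nuclear phosphatase for ERK, was at 249, 154, 18.5 and 38.0 in the HT29 SCR libraries. In the silenced libraries it was at 48.8 and 14.0 with siPOLR1D2 and at 17.1 and 18.6 with siPOLR1D3. The SCR libraries thus differed 13.4-fold among themselves, and SCR replicates 3 and 4 lay among the silenced libraries. The 2 high values belong to SCR replicates 1 and 2. Those 2 libraries had 14200000 and 16100000 estimated reads, fewer than the other SCR libraries. The lowest estimate of the line (13500000) was that of siPOLR1D3 replicate 2, with DUSP5 at 18.6. These estimates rest on the most frequent low value, and reads were not recovered. SCR replicates 1 and 2 had VIM at 76.3 and 70.9, against 4.72 to 56.0 in the other 6 libraries. The part of read number or VIM in the DUSP5 values was not tested. DUSP5 had a value of -1.70 on the log2 scale (SE 0.76, adjusted p = 0.468, limma) and one of -1.12 (SE 0.66, adjusted p = 0.596, limma) without SCR replicate 1. DUSP4, which encodes a nuclear phosphatase of ERK, JNK and p38, was at 399, 426, 275 and 234 in SCR and at 288, 199, 206 and 203 in silenced libraries. In 3 of the 4 silenced libraries DUSP4 was below every SCR library, with a value of -0.55 on the log2 scale (SE 0.22, adjusted p = 0.445, limma).

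Of the inhibitors, SPRY4 was at 86.0, 103, 90.6 and 66.9 in HT29 SCR libraries. With siPOLR1D2 it was at 132 and 110, and with siPOLR1D3 at 106 and 145. The silenced cells lay above the whole SCR range, as they did for 2.72% of all genes tested, by 0.51 on the log2 scale (SE 0.20, adjusted p = 0.431, limma; exact permutation test, 2-sided, p = 0.0286). SPRY2 showed little difference, at 397 to 482 in SCR and 423 to 449 in silenced libraries, with a log2 fold change of -0.05 and a 95% interval from -0.31 to 0.20. SPRED1 was between 3849 and 5494 in SCR and between 5094 and 5892 in silenced libraries, and the difference of 0.16 on the log2 scale did not pass the test (SE 0.13, adjusted p = 0.633, limma).

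ETV5 was at 857, 639, 579 and 531 in HT29 SCR libraries. It was at 475 and 407 with siPOLR1D2 and at 424 and 466 with siPOLR1D3. As for DUSP6, the groups did not overlap, and the highest SCR value was that of SCR replicate 1. The log2 fold change of ETV5 was -0.53 (SE 0.16, adjusted p = 0.392, limma; exact permutation test, 2-sided, p = 0.0286) and -0.40 (adjusted p = 0.353, limma) without that library. ETV4 overlapped between the groups, at 693 to 948 in SCR and 648 to 787 in silenced libraries (log2 fold change -0.17, SE 0.13). FOSL1 was low in this line, at 36.9 to 74.3 in SCR and 65.3 to 119 in silenced libraries (log2 fold change 0.43, SE 0.29). PHLDA1, whose product carries a pleckstrin homology-like domain and which is induced by growth factors, was at 1260 to 1930 in SCR and 1205 to 1453 in silenced libraries (log2 fold change -0.21, SE 0.15). Without SCR replicate 1, the values of the other members were -0.45 for DUSP4, 0.51 for SPRY4, -0.03 for SPRY2, 0.05 for SPRED1, -0.14 for ETV4, 0.50 for FOSL1 and -0.29 for PHLDA1, with adjusted p between 0.448 and 0.959 (limma).

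**Figure D2:**
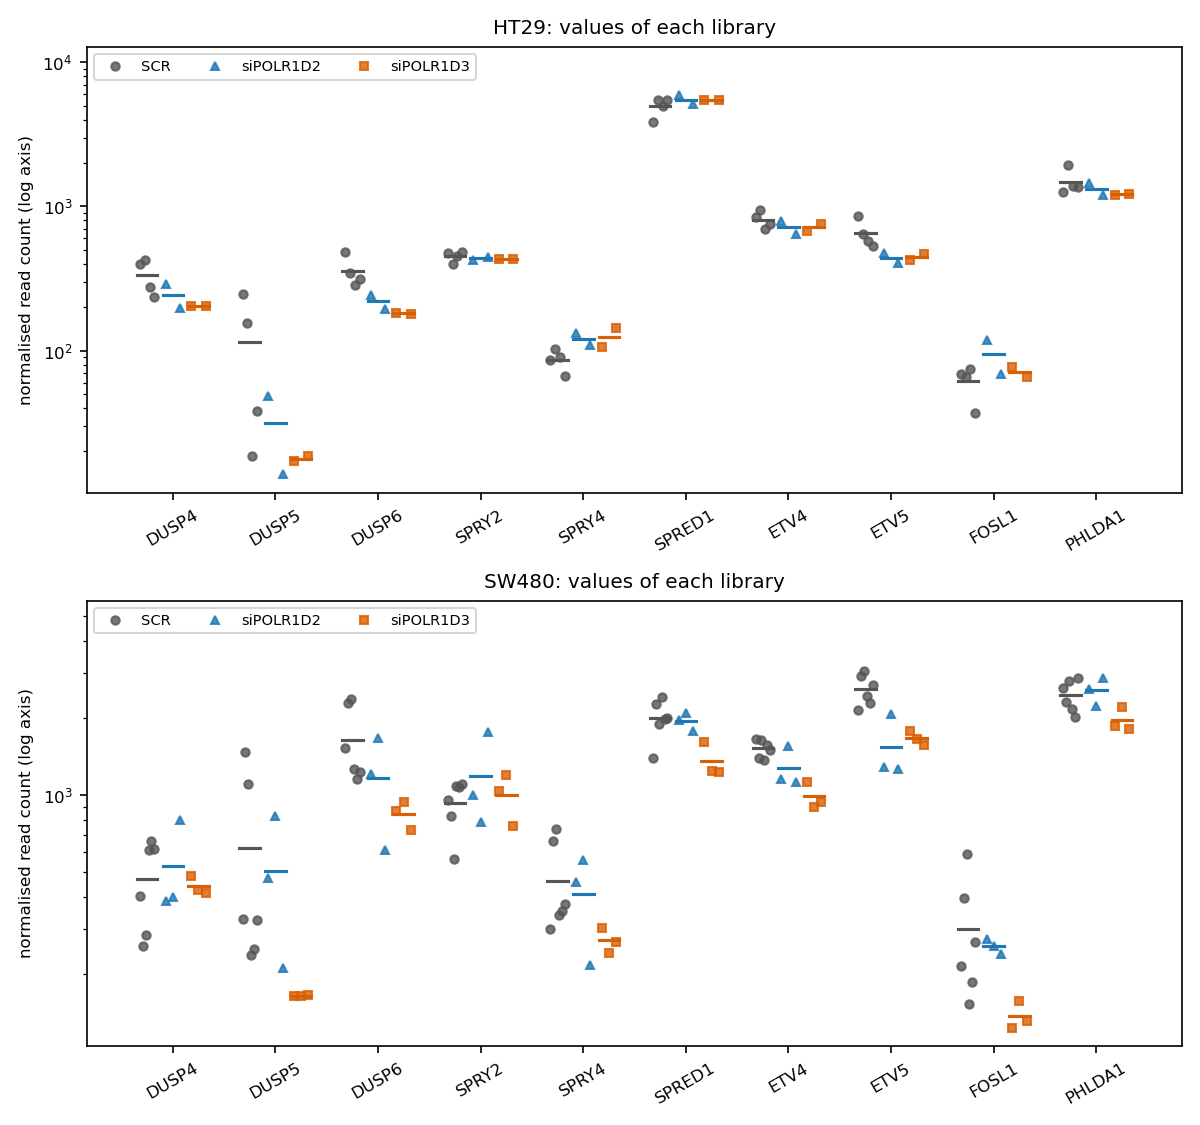
Normalised read count of each gene in every library of HT29 (upper panel) and SW480 (lower panel), on log axes. Circles are SCR, triangles siPOLR1D2 and squares siPOLR1D3, and bars are group means. In both lines the silenced ETV5 libraries lie below all SCR libraries, and DUSP5 spreads from 18.5 to 249 in HT29 SCR and from 238 to 1475 in SW480 SCR.

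In SW480, the PEA3 group factors ETV5 and ETV4 were lower in silenced cells and passed the test, and they were the members called in this line when all libraries were used. limma called 2 of 10 members, both lower, where it called 6.73% of 15019 genes, 4.29% as lower and 2.44% as higher. The median log2 fold change of the 10 members was -0.44, against 0.01 over all genes tested. Of the members 8 of 10 values were below 0, and of all genes 7279 of 15019. With upper quartile scaling, the split of calls over all genes moved from 367 higher and 644 lower to 574 higher and 466 lower, and ETV4 no longer passed the threshold. The calls for siPOLR1D2 moved from 474 higher and 751 lower to 648 and 664, and those for siPOLR1D3 from 323 and 669 to 514 and 411.

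ETV5 was between 2156 and 3059, with a median of 2562, in the 6 SW480 SCR libraries. It was at 1285, 2076 and 1262 with siPOLR1D2 and at 1778, 1650 and 1570 with siPOLR1D3. Every silenced value was thus lower than the lowest control value, which held for 2.88% of all genes tested (1.68% lay above in the same way), and ETV5 was the member for which it held. ETV5 fell by 0.70 on the log2 scale (SE 0.14, adjusted p = 0.0106, limma; exact permutation test, 2-sided, p = 0.00216, the smallest that 6 against 6 can give). Each siRNA alone passed the threshold against the shared SCR libraries, at -0.78 (SE 0.16, adjusted p = 0.0139, limma) for siPOLR1D2 and -0.63 (SE 0.16, adjusted p = 0.0403, limma) for siPOLR1D3. The siPOLR1D2 call was lost without siPOLR1D2 replicate 1 (adjusted p = 0.0786, limma) or replicate 3 (0.061), and the siPOLR1D3 call when any siPOLR1D3 library or SCR replicate 2, 3, 4 or 6 was left out, with adjusted p between 0.0165 and 0.163 over all such fits. The siPOLR1D3 call was also lost in 6 of 13 other alternatives, among them upper quartile scaling (adjusted p = 0.0677, limma) and the side as a covariate (0.0878), over a range from 0.00189 to 0.0878. The pooled call was kept in all 12 fits without 1 library, with adjusted p between 0.00648 and 0.0281 (limma). It was lost with the replicate number as a block (log2 fold change -0.76, adjusted p = 0.119, limma). SCR replicates 4 to 6 share no number with a silenced library and do not enter that fold change. The block thus set SCR replicates 1 to 3, all of the first side, against silenced libraries of both sides. For siPOLR1D2, 1 of 10 members was called, lower, where limma called 8.16% of genes, 3.16% higher and 5.0% lower. For siPOLR1D3, 2 of 10 were called, both lower, where it called 6.6% of genes, 2.15% higher and 4.45% lower. By position alone, 1 member lay below the whole SCR range with siPOLR1D2 (6.86% of all genes) and 4 with siPOLR1D3 (10.9%), and 0 lay above with either (5.82% and 8.84% of all genes). Within the second side alone ETV5 was at -0.67 (adjusted p = 0.00963, limma) and within the first side at -0.71, where 3 SCR and 2 silenced libraries did not give a call for any gene (adjusted p = 0.418 for ETV5, limma).

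ETV4 was between 1365 and 1656, with a median of 1529, in SW480 SCR libraries. In the silenced libraries it was at 1152, 1551 and 1123 with siPOLR1D2 and at 1128, 900 and 937 with siPOLR1D3. In 5 of 6 silenced libraries it was below every SCR library, the exception being siPOLR1D2 replicate 2. ETV4 fell by 0.44 on the log2 scale (SE 0.13, adjusted p = 0.0486, limma) over both siRNAs. With siPOLR1D3 the value was -0.62 (SE 0.13, adjusted p = 0.0149, limma), and with siPOLR1D2 -0.27 (SE 0.13, adjusted p = 0.218, limma). The pooled call was close to the threshold and was lost in 11 of the 12 fits that left out 1 library, all but the one without siPOLR1D2 replicate 2, with adjusted p between 0.0117 and 0.105 (limma). The siPOLR1D3 call was lost without siPOLR1D3 replicate 2 or 3 (adjusted p = 0.086 and 0.0886, limma). It was also lost with the replicate number as a block (adjusted p = 0.066, limma). The third factor, FOSL1, was between 153 and 590 in SCR, at 274, 259 and 239 with siPOLR1D2, and at 123, 157 and 131 with siPOLR1D3. Its siPOLR1D2 libraries lay within the SCR range, and its log2 fold change with siPOLR1D3 was -0.98 (SE 0.34, adjusted p = 0.106, limma).

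The spans of ETV5 and ETV4 overlap those of other protein-coding genes in GENCODE 29, and no source used here says whether the counting used strand. DUSP6, SPRY4 and PHLDA1 overlap antisense genes, as does ETV5. ETV4 (chromosome 17, 43527844 to 43579620) overlaps the span of DHX8 on the opposite strand, and DHX8 had a log2 fold change of 0.01 (adjusted p = 0.944, limma) in SW480. ETV5 (chromosome 3, 186046308 to 186110318) overlaps the span of DGKG on the same strand, where counting by strand would not separate them. DGKG averaged 93.5 in SCR and had a log2 fold change of -0.20 (adjusted p = 0.535, limma) in SW480.

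The phosphatase genes of SW480 depended on which control libraries were used. DUSP6 was at 1526, 2278 and 2379 in SCR replicates 1 to 3 and at 1268, 1158 and 1229 in SCR replicates 4 to 6. It was at 1205, 1673 and 612 with siPOLR1D2 and at 869, 940 and 730 with siPOLR1D3. Over all libraries DUSP6 stood at -0.72 on the log2 scale (SE 0.25, adjusted p = 0.10, limma). Within the second side the groups were apart, and it fell by 0.65 (SE 0.15, adjusted p = 0.0203, limma). With the side as a covariate it fell by 0.59 (adjusted p = 0.0147, limma), and 3 of 10 members, DUSP6, ETV4 and ETV5, were called lower, as were 7.86% of all genes.

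DUSP5 separated the SW480 control libraries more than any other member, at 329, 1475 and 1107 in SCR replicates 1 to 3 and at 238, 250 and 324 in replicates 4 to 6. It was at 473, 828 and 212 with siPOLR1D2 and at 164, 164 and 165 with siPOLR1D3. The siPOLR1D3 libraries were nearly equal to each other and under the SCR range, and 2 of the siPOLR1D2 libraries lay inside the SCR range. DUSP5 stood at -0.80 on the log2 scale (SE 0.53, adjusted p = 0.396, limma) over all libraries and at -0.61 (adjusted p = 0.0447, limma) within the second side. DUSP4 went the other way among the controls, at 258 to 404 in SCR replicates 1 to 3 and at 610 to 659 in replicates 4 to 6. Over all libraries siPOLR1D3 gave a log2 fold change of 0.002 for DUSP4 (adjusted p = 0.998, limma), whereas within the second side it gave -0.51 (adjusted p = 0.00893, limma). In siPOLR1D2 replicate 3, also on the second side, DUSP4 was highest of all 12 libraries at 798.

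Control replicates 2 and 3 of SW480 also differed in genes outside the list. VIM was at 42300 and 52770 there and between 15560 and 18740 in the other 4 SCR libraries. EGFR, the receptor at the top of the pathway, was at 5620 and 7027 in those 2 libraries and between 1613 and 2091 in the other 4. The siPOLR1D2 libraries of the first side had EGFR at 4037 and 4851, and the silenced libraries of the second side had it at 847 to 1176. The part of these differences in the values of DUSP5 and DUSP6 was not tested.

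**Figure D3:**
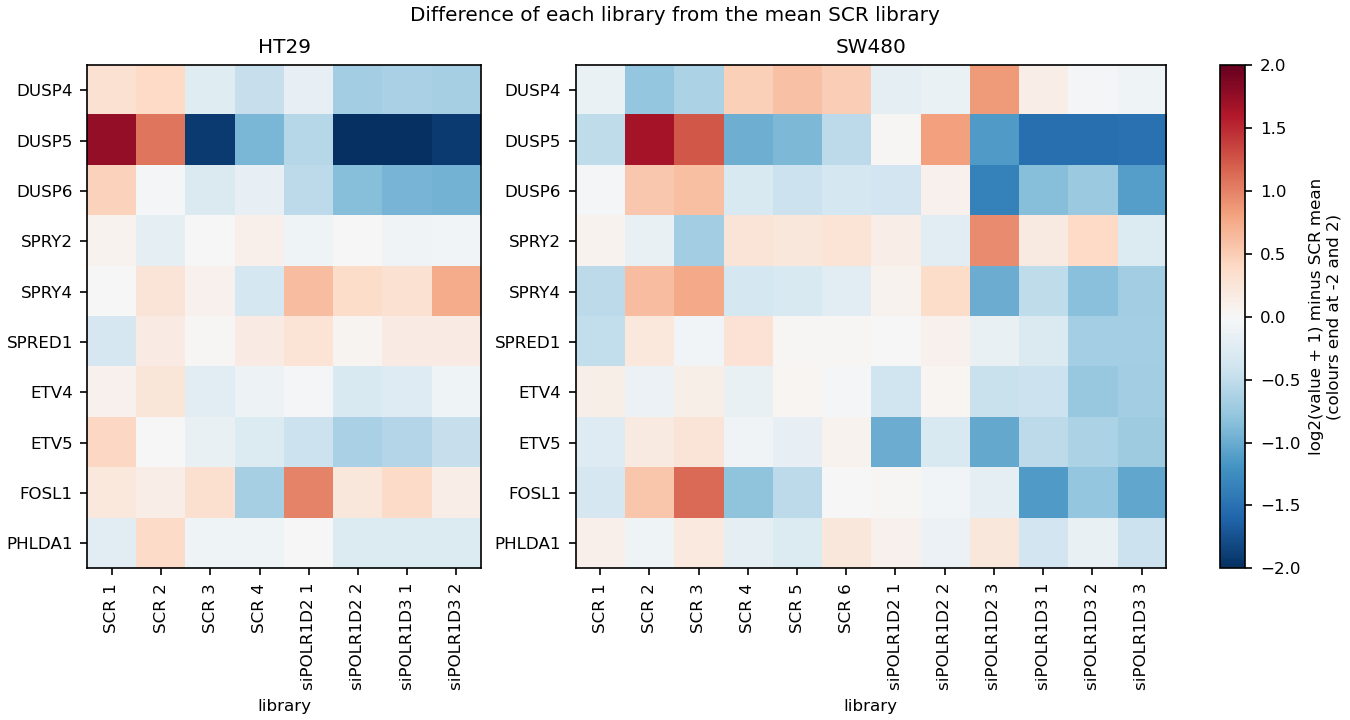
Difference of each library from the mean SCR library of its line, as log2(value + 1), for the 10 genes; red is above and blue below the SCR mean, and colours end at -2 and 2. In SW480 the controls SCR 2 and SCR 3 are red for DUSP5, DUSP6, SPRY4 and FOSL1, and ETV5 is blue in all 6 silenced libraries.

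The inhibitor genes of SW480 were not called when all libraries were used. SPRED1 was between 1399 and 2411, with a median of 1995, in SCR, at 1960, 2083 and 1782 with siPOLR1D2 and at 1615, 1238 and 1236 with siPOLR1D3. The siPOLR1D3 values were all below the SCR median, at -0.54 on the log2 scale (SE 0.16, adjusted p = 0.0601, limma). SPRY4 was between 301 and 736 in SCR, at 456, 559 and 217 with siPOLR1D2 and at 304, 242 and 267 with siPOLR1D3 (log2 fold change -0.43 over both, SE 0.28, adjusted p = 0.379, limma). SPRY2, which lies on chromosome 13 (80335976 to 80340951), the chromosome that also carries POLR1D, was between 565 and 1101 in SCR. It was at 1005, 788 and 1760 with siPOLR1D2 and at 1040, 1197 and 758 with siPOLR1D3. The SPRY2 groups overlapped, with a log2 fold change of 0.20 and a 95% interval from -0.26 to 0.66. PHLDA1 overlapped as well, at 2023 to 2865 in SCR and 1817 to 2861 in silenced libraries (log2 fold change -0.13, SE 0.13).

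Within the second side, which holds 3 SCR and 4 silenced libraries, the silenced cells lay below the whole SCR range for 6 of 10 members, and for 14.2% of all genes tested. They were DUSP5, DUSP6, SPRY4, SPRED1, ETV4 and ETV5. limma called 5 of the 10 members there, all lower, where it called 6.87% of 15553 genes as lower. Those were the same genes without SPRY4, and SPRED1 was at -0.55 (adjusted p = 0.0382, limma). Of the members not called there, SPRY4 was at -0.48, DUSP4 at -0.30, SPRY2 at 0.06, FOSL1 at -0.33 and PHLDA1 at -0.11 (adjusted p between 0.0661 and 0.888, limma). For siPOLR1D3 against SCR within this side, 6 of 10 members were called lower, against 10.9% of all genes. Within the first side, 1 of 10 members, ETV5, had both silenced libraries below the 3 SCR libraries, as did 14.9% of all genes. As the sides were set from these same values, the calls within a side are not independent support.

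**Figure D4:**
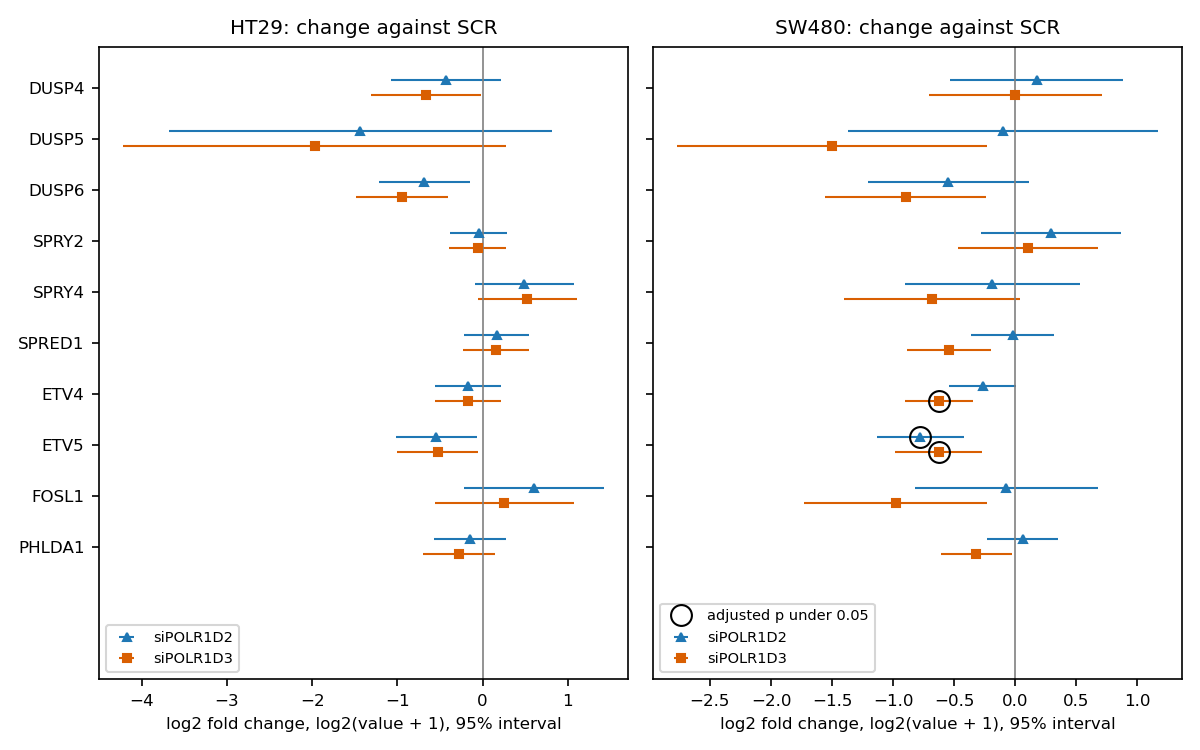
log2 fold change against SCR with 95% intervals for each siRNA, in HT29 (left) and SW480 (right); triangles are siPOLR1D2, squares are siPOLR1D3, and black circles mark an adjusted p under 0.05. Both siRNAs use the same SCR libraries. ETV5 lies at -0.78 and -0.63 in SW480, and the intervals of DUSP5 are the widest in both lines.

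The 2 siRNAs were compared directly within each line. No member differed between siPOLR1D3 and siPOLR1D2 at an adjusted p under 0.05 in SW480, where 3.32% of genes did (1.62% higher and 1.69% lower), and the smallest adjusted p of a member was 0.127 (limma). In that comparison 9 of the 10 values were below 0, with a median of -0.37. Over all genes tested, 7462 of 15019 were below 0, with a median of 0.003. The siPOLR1D2 libraries fall on both sides of the first component and the siPOLR1D3 libraries on one, so that siRNA and side cannot be fully told apart here. In HT29 the 10 values ranged from -0.54 to 0.04, and limma called 0 members and 0 of 13274 genes (0.0%).

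The response was also compared between the lines as a difference of differences, SW480 minus HT29. limma called 0 of 10 members, and 0.0393% of 12724 genes (0.0236% higher and 0.0157% lower), with adjusted p between 0.491 and 0.974 for the members. SPRY4 and FOSL1 had the most negative values, -0.94 (SE 0.39, adjusted p = 0.491, limma) and -0.96 (SE 0.48, adjusted p = 0.599, limma). On average both were above SCR in silenced HT29 cells and below SCR in silenced SW480 cells. For ETV5 the difference was -0.17 with a 95% interval from -0.61 to 0.28, and for DUSP6 it was 0.09 with an interval from -0.66 to 0.84.

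The rest of the pathway was followed in 7 lists of 66 genes, of which 61 were tested in HT29 and 63 in SW480. In HT29, limma called 0 of the 61, with a median log2 fold change of -0.05. In SW480 it called 1 higher and 8 lower of the 63, with a median of -0.22 against 0.01 over all genes tested, where 2.44% of all genes were called higher and 4.29% lower. These shares hold for each list that follows. Among the EGF ligands and receptors, 3 of 9 tested genes were lower, and these were the ligands AREG (log2 fold change -2.52, adjusted p = 0.00863, limma), EREG (-2.13) and HBEGF (-1.94). AREG was at 5541 ± 5047 (SD, n = 6) in SCR and at 835 ± 398 (SD, n = 6) in silenced SW480 cells, and its control values spread from 1965 to 15470. In HT29 AREG had a log2 fold change of -1.57 (adjusted p = 0.408, limma), and its SCR values were 21630 and 11090 in replicates 1 and 2, which stood apart, and 3155 and 4486 in replicates 3 and 4, against 2236 to 3338 in silenced cells.

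Of the cascade itself, 1 of 12 genes was called in SW480, against 6.73% of all genes. This was MAPK3, which encodes ERK1, and it rose from 253 ± 51.9 to 439 ± 36.5 (SD, n = 6 each; log2 fold change 0.82, adjusted p = 0.00608, limma). In HT29 MAPK3 had a log2 fold change of -0.25 (adjusted p = 0.54, limma). HRAS and BRAF, with 0.59 and -0.31 in SW480, did not pass the threshold. Of 8 adaptors, exchange factors and RAS GTPase activators, 2 were lower in SW480, namely RASA2, an inactivator of RAS (-0.73, adjusted p = 0.0134, limma), and SOS2, an exchange factor that activates RAS (-0.55, adjusted p = 0.0319, limma).

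Among the other output genes, 2 of 10 were lower in SW480, against 4.29% of all genes, and both encode ephrin receptors, EPHA2 (-0.64, adjusted p = 0.0211, limma) and EPHA4 (-1.39, adjusted p = 0.0432, limma). LIF, a cytokine, had -1.58 (adjusted p = 0.0626, limma). Of the other 7 MAPK phosphatases 1 was lower, DUSP16 (-0.66, adjusted p = 0.0245, limma), which encodes a phosphatase of JNK and p38. None of the 14 other ETS, AP-1 and early response factors and none of the 3 other Sprouty and Spred genes tested passed over both siRNAs (limma). Of their values, 12 of 14 and 3 of 3 were below 0, against 7279 of 15019 over all genes. With siPOLR1D3 alone, MYC (-0.73, adjusted p = 0.0108, limma) and SPRY1 (-1.03, adjusted p = 0.0288, limma) were lower. SPRY1 also differed between the siRNAs (-1.20, adjusted p = 0.0413, limma).

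**Figure D5:**
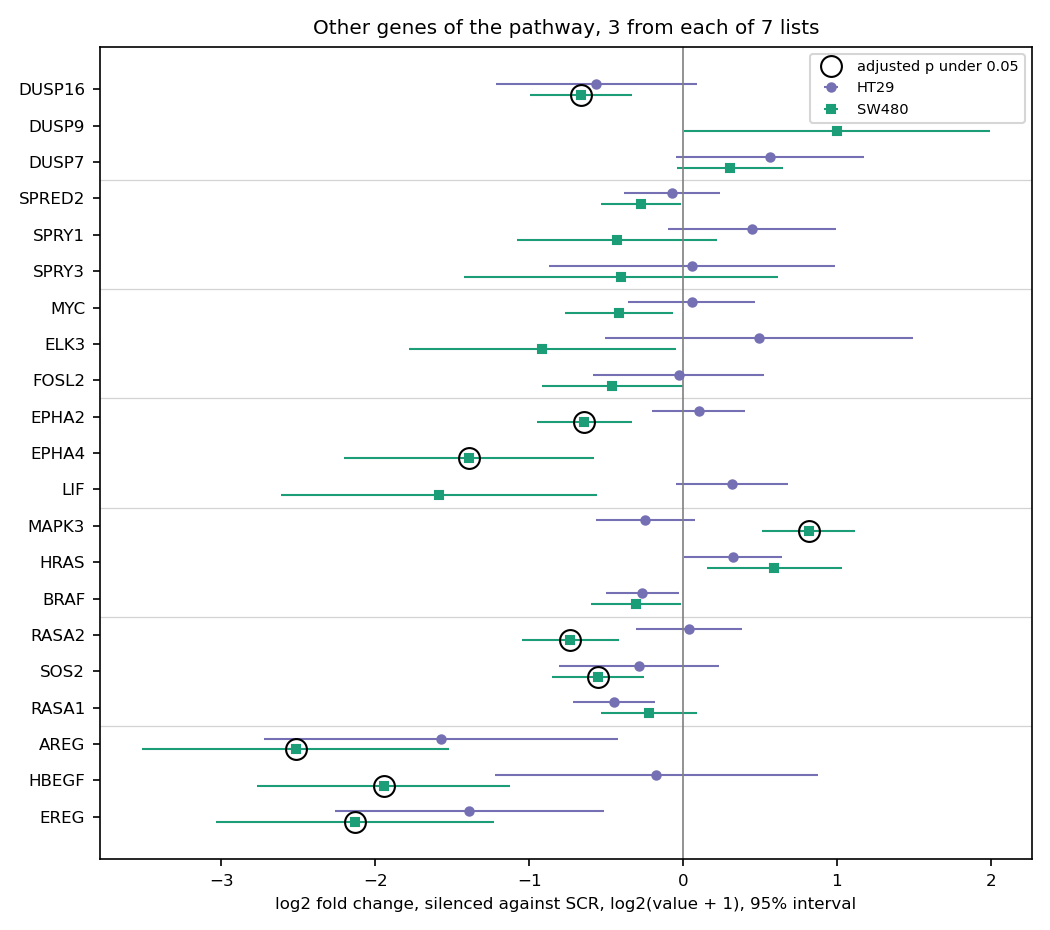
log2 fold change of silenced against SCR libraries with 95% intervals for 21 other genes of the pathway, the 3 with the smallest p in SW480 from each of 7 lists, divided by grey lines. Circles are HT29, squares SW480, and black circles an adjusted p under 0.05. AREG, HBEGF and EREG lie furthest to the left in SW480 and MAPK3 lies to the right; DUSP9 and EPHA4 were not tested in HT29.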

How the data were processed

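The authors prepared libraries with a kit that captures the coding transcriptome, sequenced paired-end reads of 75 bp and, per the submitters' processing notes, used FastQC 0.11.5, kallisto 0.44.0 and DESeq2 1.24.0 with hg38; the kallisto index and annotation are not given in the sources used here. The deposited signal values are estimated counts per gene that the authors normalised within each cell line. They are not whole (26.6% to 53.1% of values under 10 in a library are multiples of the most frequent low value within 0.01), so reads were not recovered and no count test was run.

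Rows that share a name were summed. Genes that reached 10 in 4 or more HT29 or 6 or more SW480 libraries were fitted with limma 3.58.1 (R 4.3.3) on log2(value + 1) with a mean-variance trend, each line alone, with no covariate. The 2 siRNAs were pooled in the main comparison and fitted as separate groups with a shared spread for the others. Adjustment was by Benjamini-Hochberg over all genes tested, with a threshold of 0.05. Single genes were compared by exact permutation tests of log2 values, 2-sided, 66 in all and not adjusted. The fits were run on simulated data with noise drawn independently for each gene and library. The pooled fits recovered 55.6% (HT29) and 73.2% (SW480) of changes of 1 on the log2 scale. Wrong calls made up 5.27% and 6.4% of their calls. The siPOLR1D3 fits recovered 35% and 62.6% of such changes. The simulated libraries lacked a split like that of the first component, so these shares need not hold for the real data. Positions are those of GENCODE 29. The members, the lists and the rule for named genes (the 10 members, POLR1D and the 3 genes with the smallest p in SW480 from each of 7 lists) were chosen with earlier results of these data known. DHX8, DGKG, EGFR and the marker genes, which the rule does not name, are given beside results they touch. Intervals cover the spread between libraries, and the depth behind single values is unknown. Libraries of a group differed by more than sampling noise (mean chi-square per gene 10.2 to 194). Alternatives were pseudocounts of 0.1 and 5, other filters, scalings, weights and variance models, the highest row of a name, a replicate block, the side of the first component, and each library left out.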

Additional observations from a re-analysis of the deposited data

Results flagged for a closer look

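In each of 40 groups (10 genes, 2 lines, SCR and silenced libraries), the highest and the lowest library were compared with their nearest neighbour, and chance alone sets about 1 in 20 groups apart. A single library stood apart in 4 groups, all of silenced cells and all through a siPOLR1D2 library. In HT29 this was siPOLR1D2 replicate 1, with 288 for DUSP4, 48.8 for DUSP5 and 1453 for PHLDA1, each the highest of the 4 silenced libraries and each with a gap of over 0.86 of the group's range. In SW480 it was siPOLR1D2 replicate 3, with 798 for DUSP4, the highest of the 6. As normalised read counts, FOSL1 was above the SCR mean in all 4 silenced HT29 libraries and below it in all 6 silenced SW480 libraries. On the log2 scale siPOLR1D2 replicate 1 of SW480 was 0.023 above the SCR mean. The difference of the changes between the lines was -0.96 (adjusted p = 0.599, limma).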

How the results depend on the processing

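The 10 members gave 70 results with a test, and 1606 values under the alternatives. Of these, 1490 kept their direction and their side of the threshold, 39 lost a call, 26 gained one and 51 changed sign, and the cause was not tested for any of them.

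The pooled call of ETV5 in SW480 was lost with the first side alone and with the replicate block, over a range of adjusted p from 0.000532 to 0.418 (limma). With siPOLR1D3 alone, ETV5 was the member that lost its call with no filter, upper quartile scaling, quantile normalization, no trend or the covariate. ETV4 lost its call in 6 of 13 alternatives beside those without 1 library, namely no filter on low values, upper quartile scaling, quantile normalization, no mean-variance trend, the block and the first side alone, over a range of adjusted p from 0.00152 to 0.732 (limma).

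In SW480 pooled, 2 members and 1011 genes were called. The members called were 1 with no filter, upper quartile scaling, quantile normalization or no trend, 4 with array weights, 5 with the second side alone and 0 with the first side alone, and 1 to 3 without 1 library. The genes called were 666 with no filter, 3057 with array weights, 1993 with the side as a covariate, 1939 on the second side, 0 on the first side, and 534 to 1283 without 1 library. For siPOLR1D2 (1 member, 1225 genes), the members were 2 with the covariate, 0 on the first side and 0 to 1 without 1 library, and the genes 4046 with array weights, 2241 with the covariate, 0 on the first side, 574 with this siRNA and SCR fitted alone, and 446 to 1806 without 1 library. For siPOLR1D3 (2 members, 992 genes), the members were 1 with no filter, upper quartile scaling, quantile normalization, no trend or the covariate, 8 with array weights, 6 on the second side and 0 to 3 without 1 library, and the genes 3782 with array weights, 3158 on the second side and 119 to 1353 without 1 library. Between the siRNAs in SW480 (0 members, 498 genes), array weights called 6 members and 4637 genes and the covariate 1 member and 213 genes, with 289 genes without the filter, 293 without the trend and 39 to 777 without 1 library. In HT29, array weights called 94 genes and 1 member for siPOLR1D3, and the fits without 1 library called 0 to 1 genes pooled and 0 to 2 for siPOLR1D3. For the difference between the lines (5 genes), 8 were called at a value of at least 50, 9 with quantile normalization, 3 without the trend, 179 with array weights and 2 to 17 without 1 library. Of the wider lists (9 genes called), 18 were called with array weights, 15 with the covariate, 15 on the second side, 0 on the first side, and 5 (without SCR replicate 6) to 10 without 1 library.

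Deviations of libraries with the same replicate number had a mean correlation of -0.0368 in HT29, with 0 of 6 pairs over 0.1, and -0.0153 in SW480, with 2 of 9 pairs over 0.1. The 2 libraries of an HT29 siRNA group deviate as mirror images, so those pairs are not independent. In SW480 the correlations also carry the split by side. They therefore cannot show whether the replicate numbers pair the samples. With the replicate number as a block, SCR libraries that share no number with a silenced library do not enter the fold change. In SW480 these are SCR replicates 4 to 6. In HT29 they are SCR replicates 3 and 4, which leaves replicates 1 and 2, the 2 that stood apart. The block called 735 genes and 4 members in HT29 pooled (DUSP4, DUSP5, DUSP6 and ETV5, all lower, as were 417 of 13274 genes). It called 8 genes for siPOLR1D2 and 23 for siPOLR1D3 there. In SW480 the block left 0 genes and 0 members pooled, 20 genes and 0 members for siPOLR1D2, 39 genes between the siRNAs, 97 for the difference between the lines and 0 of the wider lists. For siPOLR1D3 there the block called 340 genes higher and 388 lower, with calls lost for ETV4 and ETV5 and gained for other members. It turned the sign of SPRY2 in HT29 (0.00 pooled and 0.008 for siPOLR1D2), of SPRED1 and PHLDA1 with siPOLR1D2 in SW480 (0.09 and -0.007), and of DUSP6 in the difference between the lines (-0.052).

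Other changes of sign concerned values that had not passed the test. With upper quartile scaling, SPRY2 in HT29 went to 0.001 pooled and 0.006 for siPOLR1D3, and SPRED1 with siPOLR1D2 in SW480 to 0.011. With array weights in SW480, pooled DUSP4 and SPRY2 went to -0.314 and -0.081, DUSP4, DUSP5, SPRY2, SPRY4 and FOSL1 with siPOLR1D2 to -0.39, 0.675, -0.055, 0.226 and 0.221, DUSP4 and SPRY2 with siPOLR1D3 to -0.376 and -0.2, and SPRY2 in the difference between the lines to -0.029. With the side as a covariate, DUSP4 went to -0.032 pooled and -0.509 for siPOLR1D3, and SPRY2 for siPOLR1D3 to -0.221. On the second side, DUSP4 went to -0.296 pooled and -0.509 for siPOLR1D3, and SPRY2 for siPOLR1D3 to -0.148. On the first side, SPRED1 went to 0.151 (pooled and siPOLR1D2, the same libraries) and PHLDA1 for siPOLR1D2 to -0.091. Without 1 library, the range included both signs for pooled DUSP4 in SW480 (-0.066 to 0.204). It did so with siPOLR1D2 for DUSP4 (-0.165 to 0.36), DUSP5 (-0.561 to 0.42), SPRY2 (-0.035 to 0.544), SPRY4 (-0.462 to 0.22), SPRED1 (-0.12 to 0.039), FOSL1 (-0.234 to 0.154) and PHLDA1 (-0.02 to 0.157), with siPOLR1D3 for DUSP4 (-0.152 to 0.118) and SPRY2 (-0.038 to 0.291), and in the difference between the lines for DUSP6 (-0.074 to 0.216) and PHLDA1 (-0.045 to 0.16).

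Since reads could not be recovered, the counting error of low genes such as FOSL1 and DUSP5 in HT29 is not known. Where leaving out a library left a lone sample in an siRNA group, its spread was taken to be that of the other groups. The alternatives by side were set after the split of the SW480 libraries had been seen.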

Other observations

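Of the colorectal markers, KRT20, a keratin of differentiated intestinal epithelium, was between 1.73 and 11.2 in the SW480 SCR libraries. It was at 51.8, 20.7 and 94.6 with siPOLR1D2 and at 33.0, 24.9 and 21.3 with siPOLR1D3, so that the groups did not overlap. KRT20 rose by 2.74 on the log2(value + 1) scale (adjusted p = 0.00698, limma), which understates the change at such low values. In HT29, where it was between 1412 and 3813 in all 8 libraries, the groups overlapped. CDX2 was between 0 and 0.465 in the HT29 SCR libraries and between 3.96 and 7.91 in the silenced ones, under the filter on low values, so that it was not tested.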
